A study of Mus musculus with 2 samples.

Results

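The host genes described here encode the kinases of the mitogen-activated protein (MAP) kinase cascade, read through the circular RNAs (circRNAs) that were assigned to them in mouse intestinal cells. A circRNA is a closed molecule made when an exon's end is spliced back to its own start or that of an earlier exon, and reads over this back-splice junction reveal it. All entries were taken whose host gene name begins with Map4k, Map3k, Map2k or Mapk followed by a number, and those of BC021891, whose exonic circRNAs end on exons of Map3k21 in the annotation. This gave 31 of the 8174 host genes of the series and 126 of its 31496 listed circRNAs, of which 30 host genes with 110 circRNAs are described. Of the 30, 26 had at least 1 junction read, 15 had at least 10 over both libraries, and 4 had an entry with no junction read.

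Both samples came from intestine of Lgr5GFP-CreERT2 mice aged 2 months, in which a reporter placed at the Lgr5 gene marks crypt base stem cells. Flow cytometry gave an Lgr5+ fraction, which the labels call ISC (intestinal stem cells), and an Lgr5- fraction, labelled non-ISC, which is defined by what it lacks and can hold any other cell of the digest. Each fraction had 1 library, so the differences below are between 2 libraries, without a replicate check or a p-value. Total RNA had been depleted of ribosomal RNA and treated with RNase R, an enzyme that digests linear RNA.

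In a MAP kinase cascade, MAP4 kinases activate MAP3 kinases, which phosphorylate MAP2 kinases, which in turn phosphorylate the MAP kinases ERK, JNK and p38. MAP kinases carry signals from growth factor, cytokine, stress and antigen receptors to transcription factors and other kinases. In intestinal epithelium ERK signalling below the EGF receptor is known for its part in crypt cell proliferation, and in lymphocytes ERK and JNK act below the antigen receptor. A count of circRNA reads says nothing of kinase activity, and it was not set against linear transcript reads here.

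The ISC-labelled library held 156582 junction reads and the non-ISC-labelled library 76331. Ratios are shares of these totals, ISC-labelled over non-ISC-labelled, with 95% exact intervals in parentheses that cover counting error only. Sums of marker genes went against the labels. Lgr5 had 0 reads in the ISC-labelled library and 7 in the non-ISC-labelled one, under 10 in all. The 10 crypt stem cell markers summed to 38 against 173 reads, with 7 and 1 of them at 0. Of the 5 that reached 10 reads, 4 were lower in the ISC-labelled library. The fifth, Znrf3, had 23 against 12, a ratio of 0.934 (0.446 to 2.06), and Cdk6, under 10 reads, had 5 against 2. The 15 epithelial markers summed to 7 reads in the ISC-labelled library, where 12 of them including Epcam, Cdh1 and Vil1 were at 0, against 400 in the non-ISC-labelled library, where 3 were at 0. The 18 lymphocyte markers summed to 7346 against 138 reads, with 3 and 10 of them at 0, and each of the 13 that reached 10 reads was higher in the ISC-labelled library. The 6 endothelial and stromal markers summed to 69 against 7 reads, a ratio of 4.81 (2.21 to 12.4), with 4 and 5 of them at 0. Pecam1 alone had 67 against 7 reads, so this sum rested on 1 gene. The 5 myeloid markers summed to 9 against 3 reads. Every ratio below sits beside these shifts between the libraries, and their part in it was not tested. In bulk RNA, fewer cells of a type and less RNA per cell cannot be told apart.

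The junctions that carry most of the reads are shown first, up to 2 circRNAs of each tier that had at least 10 reads and both ends on annotated exons. Each line gives the last 30 bases of the circle's final exon in lower case, joined to the first 30 bases of its first exon in capitals, 5′ to 3′ on the transcript strand, from the GENCODE M21 transcripts on GRCm38. The capitals thus start at the back-splice junction.
Map4k2 exons 4 to 8, chr19:6341903-6343176, plus strand: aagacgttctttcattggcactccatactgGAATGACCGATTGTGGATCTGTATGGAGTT
Map4k2 exons 4 to 9, chr19:6341903-6343386, plus strand: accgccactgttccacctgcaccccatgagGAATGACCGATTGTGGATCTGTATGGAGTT
BC021891 (Map3k21) exons 2 to 4, chr8:125924018-125927706, plus strand: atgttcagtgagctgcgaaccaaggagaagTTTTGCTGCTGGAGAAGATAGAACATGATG
Map3k3 exons 2 to 6, chr11:106096991-106123906, plus strand: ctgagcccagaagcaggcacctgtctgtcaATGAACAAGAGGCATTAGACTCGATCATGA
Map2k1 exons 2 to 5, chr9:64204431-64214609, minus strand: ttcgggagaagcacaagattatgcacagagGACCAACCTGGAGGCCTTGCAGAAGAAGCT
Map2k2 exons 2 to 4, chr10:81108748-81118229, plus strand: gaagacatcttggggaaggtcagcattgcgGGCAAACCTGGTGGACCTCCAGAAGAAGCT
Mapk14 exons 4 to 7, chr17:28724744-28728471, plus strand: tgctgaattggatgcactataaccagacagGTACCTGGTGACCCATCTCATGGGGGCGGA

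All 7 circles lie within the coding sequence of their host gene. The pair of Map4k2 circles shares its first exon, so the capitals are the same and only the donor side tells them apart. Map2k1 and Map2k2 are paralogs, both circles begin at exon 2, and their first 30 bases match at 24 positions. Their last 30 bases match at 9 positions, but these come from different exons, exon 5 of Map2k1 and exon 4 of Map2k2.

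Over these members the ISC-labelled library held 364 reads on 63 circRNAs and the non-ISC-labelled library 353 reads on 42, a ratio of 0.503 (0.433 to 0.584). This is 0.233% of the ISC-labelled junction reads and 0.463% of the non-ISC-labelled ones. Of the 90 member circRNAs with a read, 15 had reads in both libraries, against 4375 of 26265 over the whole series. Map4k2 and BC021891 dominated the sums. Map4k2 held 33.0% (28.2 to 38.1) of the ISC-labelled cascade reads and 1.98% (0.801 to 4.04) of the non-ISC-labelled ones. BC021891 held 0 of 364 reads, which allows up to 1.01%, against 47.9% (42.6 to 53.2), and without it the summed ratio was 0.964 (0.806 to 1.16).

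**Figure D1:**
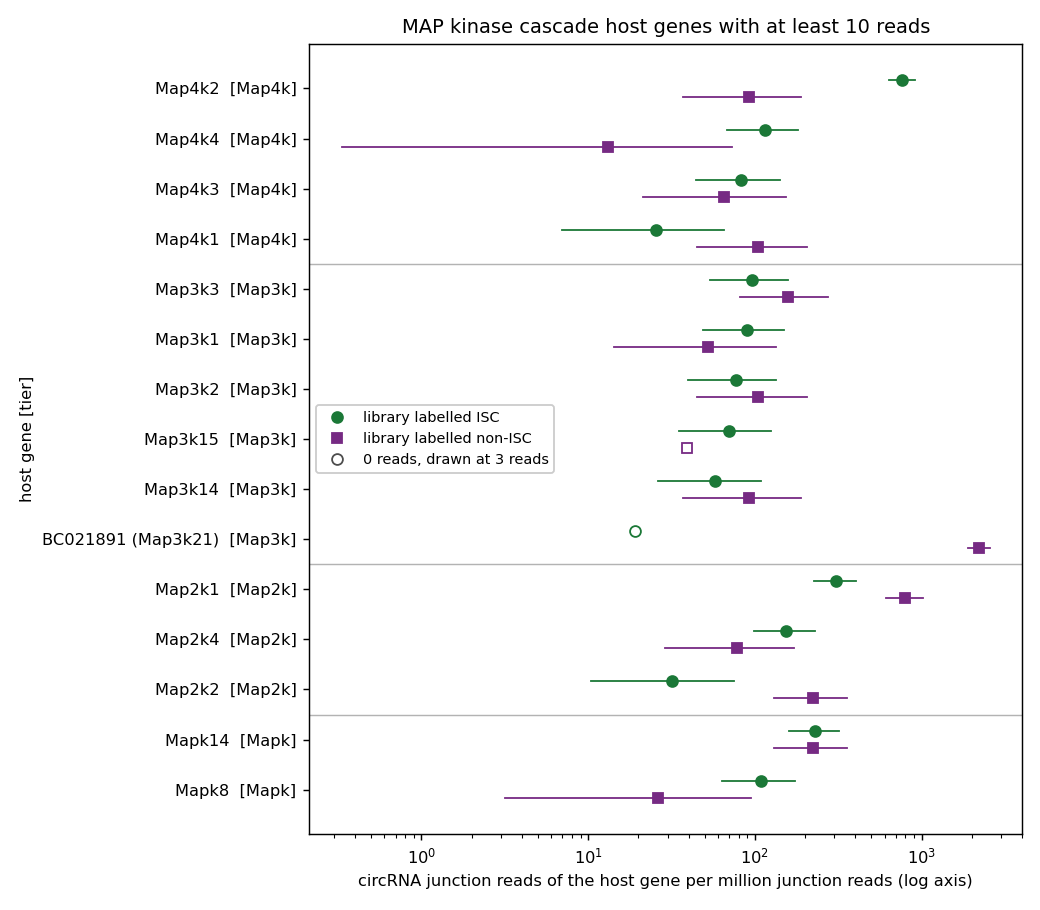
Junction reads per 1000000 junction reads (log axis) for the 15 host genes with at least 10 reads, grouped by tier, in the ISC-labelled library (circles) and the non-ISC-labelled library (squares), with exact Poisson 95% intervals. Map4k2 stands out in the ISC-labelled library and BC021891 in the non-ISC-labelled library; open symbols mark 0 reads, drawn at 3 reads.

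To be counted as higher or lower, a host gene or circRNA needed 10 or more reads in all, a difference of 2-fold or more, and an interval without 1. In the ISC-labelled library 3 of the 15 host genes were higher and 4 lower, against 26.7% and 22.7% of all 2920 host genes with enough reads. Of 13 single circRNAs, 4 (30.8%) were higher and 6 (46.2%) lower, against 32.4% and 23.0% of 3659. The median log2 ratio of the 15 was 0.02, against 0.16 over all 2920. The host gene shares lie near the background of the whole series, and the members are described one by one within their tiers. Scaling to library totals raised every ratio 2.82-fold, after which 8 of the 15 were higher and 1 lower, against 58.8% and 11.1% of all. By the deposited count column 5 of 29 host genes were higher and 15 lower, against 22.2% and 53.8% of all 7304.

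The Map4k tier, the kinases at the top of the cascade, was higher in the ISC-labelled library. It had 155 ISC-labelled and 21 non-ISC-labelled reads, at a ratio of 3.60 (2.27 to 5.98). The sum rested on 1 gene: without Map4k2 it was 35 against 14 reads, a ratio of 1.22 (0.639 to 2.45). By the deposited count column the tier was at 1.94 (1.70 to 2.21) and no longer passed. Map4k2, also known as germinal centre kinase and an activator of the JNK pathway, had 120 ISC-labelled and 7 non-ISC-labelled reads. Its ratio was 8.36 (3.93 to 21.2), or 2.14 (1.71 to 2.71) by the count column and 23.5 (11.1 to 59.8) with library totals. It ranked at place 246 among host genes in the ISC-labelled library and 1777 in the non-ISC-labelled one. Both of its circRNAs start at exon 4. The one of exons 4 to 8 had 80 reads against 7, at a ratio of 5.57 (2.58 to 14.3), and that of exons 4 to 9 had 40 reads against an entry with 0 junction reads. That empty entry carried a deposited count of 81, against 552 in the ISC-labelled library, so no fold is given for it.

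Map4k2 makes a compact circle. The circle of exons 4 to 8 spans 1274 nt of genome and 285 nt when spliced, and covers codons 82 to 177 of the Map4k2 reading frame. The whole of it is printed because it is short and the best covered circle of its tier, with exons in alternating case (exons 5 and 7 in capitals).
Map4k2 circle, chr19:6341903-6343176, plus strand: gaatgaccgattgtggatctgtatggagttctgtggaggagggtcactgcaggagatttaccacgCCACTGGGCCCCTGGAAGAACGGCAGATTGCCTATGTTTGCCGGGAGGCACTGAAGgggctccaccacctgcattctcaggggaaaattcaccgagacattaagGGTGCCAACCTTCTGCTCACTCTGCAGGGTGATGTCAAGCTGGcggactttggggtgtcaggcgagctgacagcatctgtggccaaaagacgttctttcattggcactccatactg
Its 5 exons measure 65, 56, 48, 43 and 73 nt, and both its spliced length and the 417 nt of its longer partner are whole numbers of codons.

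The other Map4k genes were thinly covered. Map4k4, an activator of JNK signalling also known for its role in cell migration, had 18 reads on 7 circRNAs against 1 read, a ratio of 8.78 (1.39 to 366). Of these 7 circRNAs 1 had reads in both libraries, against 4375 of 26265 over the series, and there the reads were 2 against 1. Map4k3, known for amino acid sensing, had 13 against 5 reads, a ratio of 1.27 (0.424 to 4.54), and its leading circRNA of exons 9 to 12 had 12 reads but was not listed for the non-ISC-labelled library. Map4k1, the haematopoietic kinase HPK1 that restrains T cell receptor signalling, went the other way at 4 against 8 reads, a ratio of 0.244 (0.0537 to 0.910). Its 8 reads labelled non-ISC were on a circle of exons 14 to 16, while the 4 labelled ISC were on circles with at least 1 end off any annotated exon end. With median-ratio scaling the Map4k1 ratio was 0.273 (0.0601 to 1.02) and with library totals 0.687 (0.151 to 2.56), neither of which passed. The count column turned Map4k1 to 3.39 (1.83 to 6.97), higher in the ISC-labelled library, and Map4k3 to 0.273, lower there.

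The Map3k tier, which receives signals from MAP4 kinases and receptors, was lower in the ISC-labelled library. It had 70 ISC-labelled and 209 non-ISC-labelled reads, at a ratio of 0.163 (0.123 to 0.215). This sum also rested on 1 gene: without BC021891 there were 70 against 40 reads, a ratio of 0.853 (0.570 to 1.29). BC021891, annotated as Map3k21 and known as mixed lineage kinase 4, had no entry in the ISC-labelled library and 169 reads on 5 circRNAs in the non-ISC-labelled library. Set against a floor of 3 reads in place of 0, it was 116-fold lower in the ISC-labelled library. The exact interval of its ratio ran from 0 to 0.0108. It ranked at place 53 of all host genes in the non-ISC-labelled library. The gene lies on chromosome 8 from 125910450 to 125947440 (GRCm38, plus strand).

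BC021891 circles used few sites. The circle of exons 2 to 4 (506 nt spliced) had 143 of the 169 reads, or 84.6% (78.3 to 89.7), and covers codons 253 to 421. The start of exon 2 was shared by 3 circRNAs with 150 reads, and the end of exon 4 by 3 circRNAs with 162 reads. A second circle that ends at exon 4, at 125916133 to 125927706, had 16 reads and starts inside intron 1, 7885 nt before exon 2, where the annotation has no exon start. Circles from exon 2 to exon 8 and from exon 2 to exon 7 had 4 and 3 reads.

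**Figure D2:**
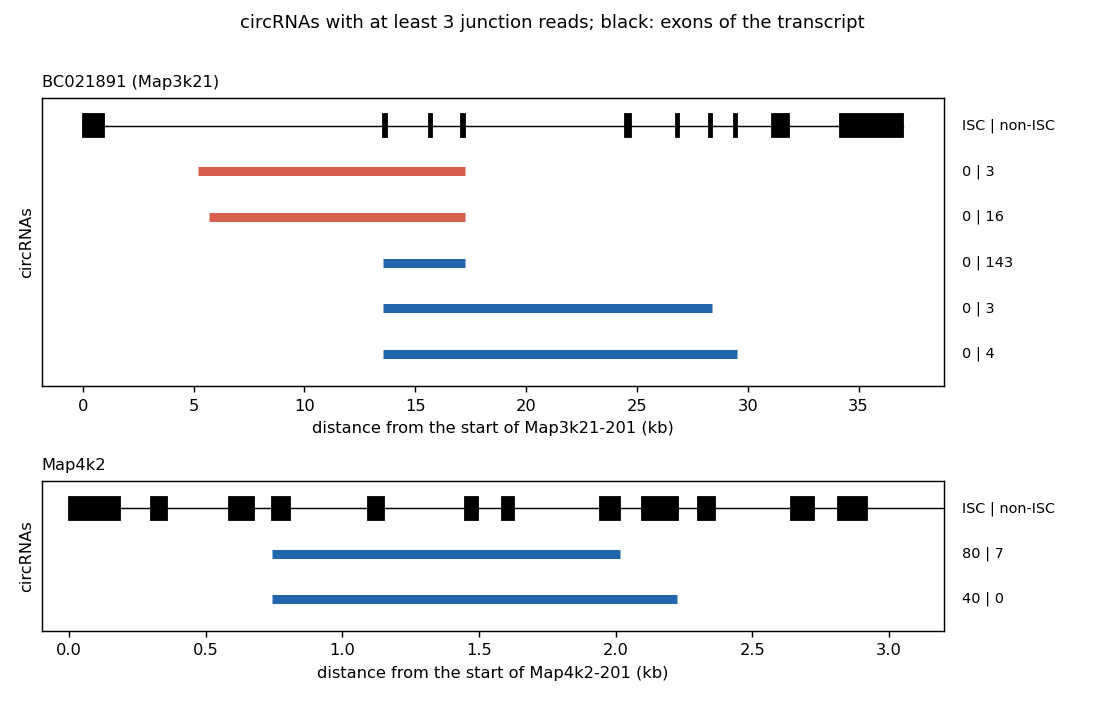
Positions of circRNAs with at least 3 junction reads along BC021891 and Map4k2, as distance in kb from the start of the named transcript, with exons in black, and reads labelled ISC and labelled non-ISC at the right. Blue bars have both ends on exons of 1 transcript and red bars do not; the BC021891 bars share the start of exon 2 or the end of exon 4, and the Map4k2 bars (drawn on the first part of the gene) share their start at exon 4.

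The remaining Map3k genes with enough reads had 11 to 27 reads over both libraries. Map3k15, the kinase ASK3, had 11 reads on 3 circRNAs in the ISC-labelled library, against 0 in the non-ISC-labelled library. It met the rule only because no read stood against the 11, and against a floor of 3 reads its ratio of 1.79 is under 2-fold. It had 2 entries in the non-ISC-labelled library, both with 0 junction reads but with deposited counts of 2 and 15, and by the count column its ratio was 0.211 (0.0918 to 0.468), lower in the ISC-labelled library. Map3k3 (MEKK3, an activator of the ERK5 pathway) had 15 against 12 reads, a ratio of 0.609 (0.266 to 1.43). Its circRNAs did not share the balance: that of exons 2 to 6 had 11 against 3 reads, and that of exons 5 to 6, with the same end, had no entry labelled ISC and 7 reads labelled non-ISC.

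Map3k1 (MEKK1, of the JNK pathway) had 14 against 4 reads, a ratio of 1.71 (0.536 to 7.12). Map3k2, a close relative of Map3k3, had 12 against 8, a ratio of 0.731 (0.275 to 2.06). Map3k14, the NF-kappa-B inducing kinase, had 9 against 7, a ratio of 0.627 (0.208 to 1.98). None of its 4 circRNAs was seen in both libraries, as was so for most circRNAs of the series (4375 of 26265 were). All 3 intervals include 1 and do not exclude a 2-fold difference in at least 1 direction. By the count column Map3k1 turned to 0.174, lower in the ISC-labelled library. A further 6 Map3k genes had 5 reads or fewer over both libraries: Map3k5 (ASK1) had 4 against 1, Map3k11 3 against 0, Map3k7 (TAK1) 1 against 3, Map3k4 1 against 1, Map3k9 0 against 3 and Map3k10 0 against 1.

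The Map2k tier was lower in the ISC-labelled library. It had 83 ISC-labelled and 87 non-ISC-labelled reads, at a ratio of 0.465 (0.340 to 0.636), which library totals turned to 1.31. Without Map2k1 there were 35 against 26 reads, a ratio of 0.656 (0.384 to 1.135) that did not pass. With median-ratio scaling the tier was at 0.520 (0.381 to 0.711) and did not pass either. Map2k1 and Map2k2, the kinases MEK1 and MEK2 that activate ERK, were both lower in the ISC-labelled library. Map2k1 had 48 reads against 61, a ratio of 0.384 (0.257 to 0.569), and Map2k2 had 5 against 17, a ratio of 0.143 (0.0414 to 0.405). Scaled to library totals, Map2k1 turned to 1.08 (0.724 to 1.60) and Map2k2 was at 0.404 (0.117 to 1.14), and neither passed. Map2k4, the kinase MKK4 of the JNK pathway, had 24 against 6, a ratio of 1.95 (0.777 to 5.83) that did not pass and was 0.638 by the count column.

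Map2k1 had at least 20 reads in each library, and it used the same circle in both. The circle of exons 2 to 5 held 79.2% (65.0 to 89.5) of its reads labelled ISC, 38 of 48, and 73.8% (60.9 to 84.2) of those labelled non-ISC, 45 of 61. The circle of exons 2 to 3 had 8 against 12 reads, a ratio of 0.325 (0.115 to 0.865). In Map2k2 the circle of exons 2 to 4 held all 5 reads labelled ISC and 16 of 17 labelled non-ISC. In Map2k4 reads were spread over 8 circRNAs, and 2 were seen in both libraries, against 4375 of 26265 over the series. The 2 were the circles of exons 2 to 4 with 7 against 4 reads and of exons 2 to 3 with 2 against 1. Map2k5, of the ERK5 pathway, had 4 against 3 reads and Map2k7, of the JNK pathway, 2 against 0.

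The Mapk genes described, the last kinases of the cascade, did not pass in either direction as a sum, with 53 reads against 36, a ratio of 0.718 (0.461 to 1.13). With library totals the ratio turned to 2.02, and by the deposited count column it was 0.104 (0.0937 to 0.116). Mapk14, which encodes p38 alpha, had 36 against 17 reads, a ratio of 1.03 (0.565 to 1.96). Mapk8, which encodes JNK1, had 17 against 2, a ratio of 4.14 (0.984 to 37.0) that did not pass, and turned to 4.64 (1.10 to 41.4) with median-ratio scaling, which passed. By the count column Mapk8 turned to 0.329, lower in the ISC-labelled library, and Mapk14 was at 0.621, which did not pass. None of the 5 Mapk8 circRNAs had reads in both libraries, as was so for most circRNAs of the series (4375 of 26265 had them). The circle of exons 2 to 3 had 8 reads and no entry labelled non-ISC. That of exons 3 to 5 had no entry labelled ISC and 2 reads labelled non-ISC.

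The circles of Mapk14 differed more between the libraries than its sum. The circle at 28716361 to 28728975 on chromosome 17, which starts in intron 3, had 11 against 13 reads, a ratio of 0.413 (0.167 to 0.998). The circle at 28724744 to 28728966 had 13 reads and no entry labelled non-ISC, and its end lies 9 nt from that of the first. The circle of exons 4 to 7 had 10 against 2 reads. The first circle held 30.6% (16.4 to 48.1) of 36 ISC-labelled reads and 76.5% (50.1 to 93.2) of 17 non-ISC-labelled ones. Scaled to library totals its ratio was 1.16 (0.471 to 2.81).

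The remaining Mapk genes described had fewer than 10 reads. Mapk13, which encodes p38 delta, had no entry labelled ISC and 9 reads labelled non-ISC, and Mapk4, an atypical MAP kinase gene on chromosome 18, had none against 8. Set against a floor of 3 reads in place of 0, these were 6.15-fold and 5.47-fold lower in the ISC-labelled library, below the minimum of 10 reads. The exact intervals of their ratios ran from 0 to 0.247 and to 0.286. Mapk3, which encodes ERK1, had no entry labelled ISC and 1 entry with 0 junction reads labelled non-ISC, as had Mapk7 (ERK5) and Mapk9 (JNK2). Among scaffold and adaptor genes that the name rule took in, Mapk8ip3, a JNK scaffold, had 3 reads against 0. In all, 11 members had 1 to 9 reads over both libraries, together 18 ISC-labelled and 29 non-ISC-labelled reads.

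Of 50 cascade names in the annotation, 19 had no entry under that name, among them Map2k3 and Map2k6, which activate p38, Mapk6, Mapk10, Map4k5 and Map3k8. Map3k20, the kinase ZAK, was listed as B230120H23Rik, outside the name rule, with 0 reads against 4. A circRNA on Map4k2 exons that was listed under a FANTOM transcript name had 1 read against 0.

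**Figure D3:**
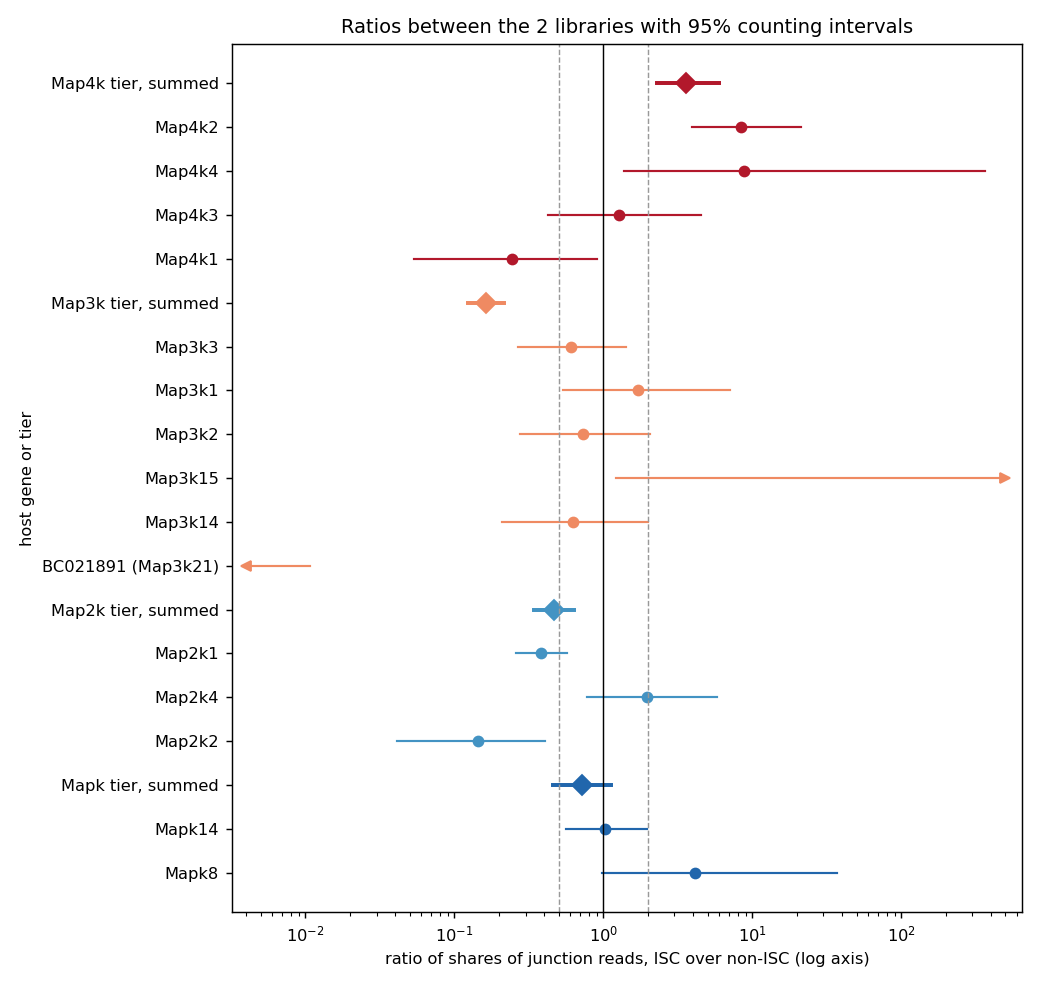
Ratios of shares of junction reads, ISC-labelled over non-ISC-labelled (log axis), with 95% exact counting intervals, for the 4 tiers (diamonds) and the 15 host genes with at least 10 reads (points); the solid line is 1, dashed lines mark 2-fold, and arrows are intervals that run off the axis or to 0 or infinity. The Map4k sum lies at 3.60 with Map4k2 at 8.36, the Map3k sum at 0.163 with BC021891 below 0.0108, the Map2k sum at 0.465 and the Mapk sum at 0.718.

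By branch, the JNK genes Mapk8, Mapk9, Map2k4 and Map2k7 summed to 43 against 8, a ratio of 2.62 (1.22 to 6.45), although neither of the 2 with enough reads passed alone. By the count column the JNK sum turned to 0.491 (0.406 to 0.595), lower in the ISC-labelled library, and over circRNAs read in both libraries to 0.825 (0.248 to 3.13). The p38 genes Mapk13 and Mapk14 gave 36 against 26, a ratio of 0.675 (0.396 to 1.16), which the count column put at 0.105, lower in the ISC-labelled library.

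**Figure D4:**
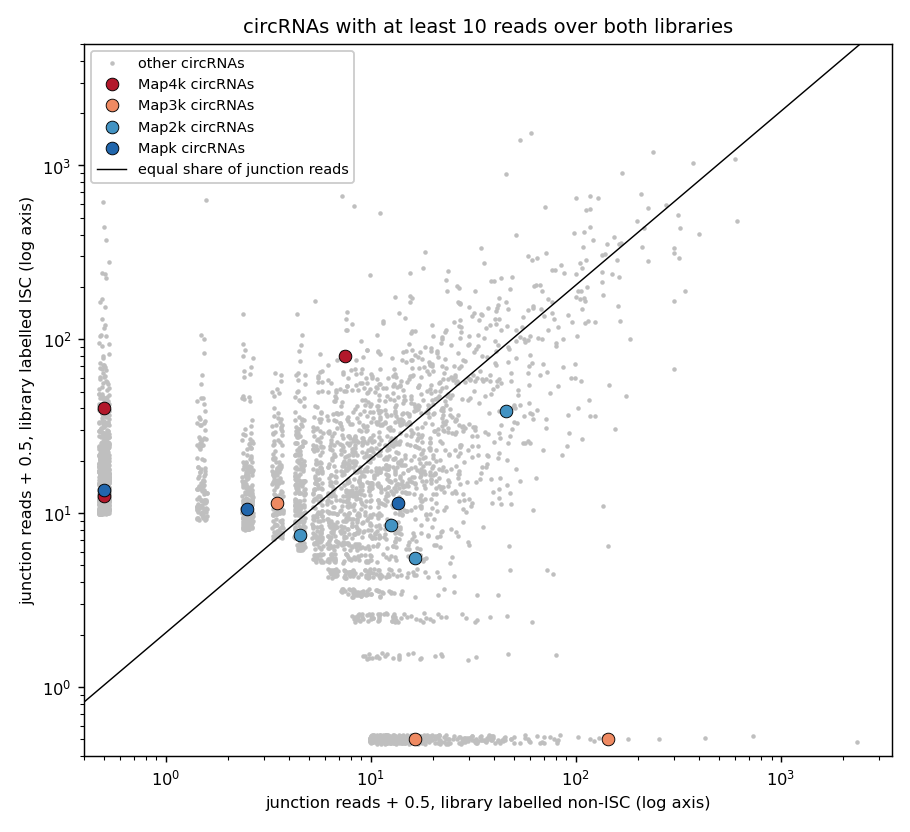
Junction reads plus 0.5 of each circRNA with at least 10 reads, ISC-labelled library against non-ISC-labelled library (log axes), with MAP kinase cascade circRNAs coloured by tier and all others in grey with a small random shift; the line marks an equal share of junction reads. The leading circRNA of Map4k2, with 80 against 7 reads, lies above the line, that of Map2k1, with 38 against 45, below it, and BC021891 with 0 against 143 at the bottom.

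The structure of the circles was not used by the name rule. Of the 90 circRNAs with a read, 69 (76.7%) had both ends on exons of 1 transcript, against 70.6% of all 26265. Among those with at least 10 reads it was 10 of 13 (76.9%), against 92.7% of 3659. The other 3 were 2 of Mapk14 and 1 of BC021891, each with 1 end on an annotated exon end. The circles with both ends on exons held a median of 4 exons and 436 nt, against 3 exons and 474 nt over all.

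Exon 2 was the first exon of 24 of the 69 (34.8%), against 26.5% of all, and of 6 of the 10 with at least 10 reads, against 35.4% of all with that many reads. All 10 of these lay wholly within coding sequence, against 81.5% of all with that many reads. None of the 10 held the start codon, which 564 of the 3392 circles of that coverage in the series did. A whole number of codons was found in 3 of the 10, the pair of Map4k2 and the one of Map3k3. Over the series it was 1068 (38.6%) of the 2764 circles of that coverage that lay within coding sequence.

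Flanking introns set Map4k2 apart from the other members. Its circle of exons 4 to 8 is flanked by introns of 68 nt and 78 nt, and that of exons 4 to 9 by 68 nt and 74 nt. The longer flanking intron of the other 8 member circles with at least 10 reads was between 2509 nt, in Map2k2, and 38603 nt, in Map2k1. Over 3370 circles of the series with that coverage the median was 12694 nt, and 13 (0.386%) had both flanking introns under 100 nt, a limit chosen after the values were seen. Both Map4k2 circles are among the 13.

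**Figure D5:**
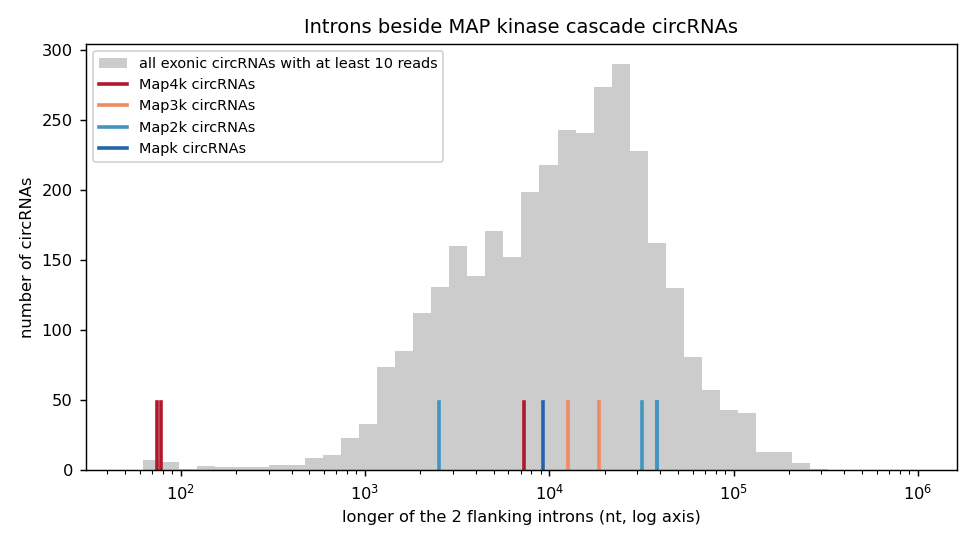
Longer of the 2 flanking introns (nt, log axis) for all 3370 circRNAs with at least 10 reads, both ends on exons and an intron on each side (grey histogram), with MAP kinase cascade circRNAs as coloured lines by tier. The pair of Map4k2 lines stands at 74 and 78 nt, below the median of 12694 nt, and the other members lie within the main body.

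Genes that act around the cascade were also counted, from a list of 74 regulators, partners and targets. Of these 52 had an entry and 27 at least 10 reads, and in the ISC-labelled library 9 of the 27 (33.3%) were higher and 6 (22.2%) lower, against 26.7% and 22.7% over all host genes. Upstream of the kinases, Nf1, a brake on Ras, had 32 against 38 reads, a ratio of 0.411 (0.248 to 0.675). Shoc2, a scaffold of Ras and Raf, had 137 against 136, a ratio of 0.491 (0.385 to 0.627). Braf, a MAP3 kinase of the ERK pathway outside the name rule, had 9 against 18, a ratio of 0.244 (0.0965 to 0.571). Gab1, an adaptor below growth factor receptors, was lower at 15 against 27, as were Cnksr3 at 37 against 66 and the JNK scaffold gene Sh3rf1 at 21 against 41. Scaling to library totals raises each of these ratios 2.82-fold, after which none of the 6 genes stays 2-fold lower.

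The 9 genes that were higher in the ISC-labelled library hold several roles. Rps6ka5, the kinase MSK1 that ERK and p38 activate, had 182 against 26 reads, a ratio of 3.41 (2.26 to 5.36). The transcription factor genes Mef2a, Mef2d and Atf2, which are MAP kinase targets, had 189 against 35, 49 against 3 and 84 against 20. Their ratios were 2.63 (1.83 to 3.89), 7.96 (2.57 to 39.9) and 2.05 (1.25 to 3.52). Rps6ka3, the ERK target RSK2, had 25 against 2, a ratio of 6.09 (1.52 to 53.1). Nlk, a kinase related to MAP kinases, had 29 against 0, which is 4.71-fold against a floor of 3 reads. Tnik, a relative of Map4k4, had 80 against 19, a ratio of 2.05 (1.23 to 3.59). The TAK1 partner gene Tab2 had 16 against 1, a ratio of 7.80 (1.21 to 327). Rasgrp1, which activates Ras in T cells, had 12 against 0. Against a floor of 3 reads the Rasgrp1 ratio of 1.95 is under 2-fold. The lymphocyte and epithelial marker sums given above differed between the same libraries, and their part in these ratios was not tested.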

How the data were processed

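Per the labels' protocols, RNA depleted of ribosomal RNA and treated with RNase R was sheared to near 200 bp and read from both ends (150 nt). Trimmomatic 0.36, FastQC and mm9 appear in the submitters' processing notes; the aligner and the circRNA caller were not given in the sources used here. Per the file headers, the authors deposited 3 values for each circRNA, namely a count, its RPM, and a count of junction reads. The deposited RPM is the count per 1000000 of a library total (52636694 reads labelled ISC, 72271995 labelled non-ISC). Junction counts, the reads across the back-splice, were used here. Ends lay on GENCODE M21 exon starts for 79.4% and 76.6% of entries, against at most 0.344% for starts or ends shifted by 1 nt, so coordinates are GRCm38.

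Junction reads were summed per host gene, and a missing entry counted as 0. CircRNAs without a host gene (0.726% and 1.48% of reads) stayed in the totals. Ratios have exact conditional (Clopper-Pearson) intervals at 95%, shares exact binomial ones, from scipy 1.17.1; the log2 pseudocount was 0.5 reads. PCR copies and both mates of a fragment can count more than once, so the reads may not all be independent. The intervals cover counting error only, and can be too narrow even for that. The call rule was tested on simulated data of independent Poisson reads. Such data hold no PCR copies and no spread between libraries, so that test cannot show how the rule does with either. Exons are numbered on the lowest-numbered basic protein-coding transcript holding both ends. Host genes with at least 10 reads and circRNAs with at least 20 are named; circRNAs below 20 reads were chosen for the text after their values were seen. The members and lists were chosen with earlier results of these data known. Alternatives were other scalings, the count column, halved reads, a minimum of 20 reads, shared circRNAs, and leaving out the most-read host gene. What the deposited count holds beyond junction reads is not stated in the file headers. Bases at splice sites were not analysed here. A host gene matched by the name rule and a gene of the pathway list are not reported here, and sums and counts leave them out.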

Additional observations from a re-analysis of the deposited data

Results flagged for a closer look

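In the library labelled non-ISC, 18 cascade entries on 14 host genes had 0 junction reads but a deposited count above 3, the limit that a count of 0 allows. These counts, a column the ratios did not use, ran from 10 to 145 with a median of 22.5. They included Mapk3 at 145, Map3k1 at 127, and the Map4k2 circle of exons 4 to 9 at 81. Of the cascade entries of that library 25 of 67 (37.3%) had 0 junction reads, against 6122 of 18324 (33.4%) over all its entries, and 26.9% had 0 with a count above 3, against 28.7%. For 5 of the 14 host genes no junction read was found in that library at all. No entry of the library labelled ISC had 0 junction reads.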

How the results depend on the processing

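No paired analysis was possible because each group has 1 library. Library totals raise every ratio 2.82-fold (1.49 on the log2 scale), median-ratio scaling 1.12-fold. With library totals the ratios were 1.42 over all members described, 1.31 for Map2k and 2.02 for Mapk, with 8 host genes higher and 1 lower; Map2k1 (1.08), Map3k14 (1.77), Map3k2 (2.06), Map3k3 (1.72) and the leading circles of Map2k1 (1.16) and Mapk14 (1.16) crossed 1. With median-ratio scaling Map2k was 0.520, past no 2-fold limit. Counting only circRNAs read in both libraries, the ratios were 0.723 over all members and 0.740 for Map3k. On these circRNAs 1 of 8 host genes was higher and 2 lower, against 12.6% and 22.2% of all 1678. There Map4k4 (0.917), Map2k4 (0.825), Map3k1 (0.688), Map3k3 (1.68), Mapk14 (0.642) and the JNK sum (0.825) crossed 1. Without the most-read host gene the ratios were 0.964 over all, 1.22 for Map4k, 0.853 for Map3k, 0.656 for Map2k and 0.436 for Mapk. With reads halved the ratio over all members was 0.481, and Mapk14 (0.945) crossed 1. Map3k15 then had 5 against 0 reads, under the minimum, and its bound against a floor of 3 reads was 0.787. Of 7 host genes 1 was then higher and 3 lower, against 23.4% and 20.6% of all 1794. With a minimum of 20 reads 1 of 8 was higher and 3 lower, against 28.5% and 23.0% of all 1920. With the count column, of which Rpph1 holds 79.2% and 41.1%, the ratios were 0.362 over all members, 1.94 for Map4k, which no longer passed, and 0.104 for Mapk, 5 host genes were higher and 15 lower; Map2k4 (0.638), Map3k1 (0.174), Map3k3 (1.42), Map3k15 (0.211), Map4k1 (3.39), Map4k3 (0.273), Mapk8 (0.329), Mapk14 (0.621) and the JNK sum (0.491) crossed 1. With that column and library totals, an alternative chosen after seeing the data, they were 1.67 over all, 1.29 for Map3k, 0.757 for Map2k and 0.479 for Mapk, 14 were higher and 9 lower (48.0% and 33.8% of all host genes); Map2k1 (1.08), Map3k1 (0.80), Map3k14 (1.32), Map3k15 (0.969), Map3k2 (2.35), Map3k3 (6.52) and Map4k1 (15.6) crossed 1. The cause of these changes was not tested. Map4k2 passed as higher under each of these alternatives, at 2.14 (count column) to 23.5 (library totals), and BC021891 as lower under those that gave it a value. The branch sums were recomputed after seeing the data. Depth limits most members: 46 of 90 circRNAs had 1 or 2 reads.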
